A study of Bos taurus with 6 samples.

Results

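The beta subunits of the sodium pump are described here through 3 genes, ATP1B1 (Entrez gene 519758), ATP1B2 (Entrez gene 282562) and ATP1B3 (Entrez gene 532844). All probe sets that the array annotation assigns to one of these symbols were taken, which gave 4 of 24016 probe sets and 3 of 9162 named genes. ATP1B1 was chosen because its level differed between treated and untreated cells in these arrays, and the other genes because they belong to the same family. The difference of ATP1B1 is therefore given as a description, with no test.

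The treated cultures were primary bovine aortic endothelial cells incubated with 5 ng/ml TGF-beta 1 for 24 hours (TGFB1, 3 arrays). They were set against the same kind of cells left without treatment (basal, 3 arrays). All cells had been released from bovine aorta by collagenase and grown in RPMI medium, and RNA was measured on an Affymetrix bovine array. The labels speak of triplicates from 3 cultures without saying whether these came from separate animals, so the spread between arrays may be partly technical.

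The sodium pump moves sodium out of the cell and potassium in, using ATP, and so maintains the gradients that drive other carriers and set the membrane potential. Its alpha subunit carries out the transport. The beta subunit is a glycosylated protein that crosses the membrane once and is needed for the alpha subunit to fold, leave the endoplasmic reticulum and reach the surface. Small FXYD proteins bind the assembled pump and tune its affinity for ions. In epithelia the beta 1 subunit also takes part in adhesion between neighbouring cells.

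Values are log2 expression as deposited, so a difference of 1 is a doubling. They carry no call of detection. Array medians lay between 5.88 and 5.92 and the 25th percentiles between 4.52 and 4.60. The arrays did not divide by treatment alone. On the first principal component, which held 63.4% of the variance, basal 1, basal 2 and TGFB1 1 lay on one side and basal 3, TGFB1 2 and TGFB1 3 on the other. Basal 3 correlated at 0.987 with TGFB1 3 and at 0.942 with basal 1 across probe sets. For that reason the differences of the 3 beta subunits, and of the related genes read array by array, are also given without basal 3. In that fit 1538 of 9162 genes had a limma adjusted p under 0.05, against 158 with all arrays. The count was 0 to 8 when any other array was left out. Basal 3 was picked from these same values, so a gene that passes only there gains no support.

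ATP1B1, the beta 1 subunit found in most pump complexes of epithelia and many other tissues, stood higher in every treated array. Its 1 probe set read 8.39, 8.32 and 8.11 log2 in TGFB1 1, 2 and 3, against 5.85, 5.37 and 6.19 in basal 1, 2 and 3. The groups did not overlap, as held for 23.3% of all genes in either direction. The lowest treated array lay above the highest basal array, as held for 8.19% of all genes. The mean was 8.27 ± 0.15 in TGFB1 cultures and 5.80 ± 0.41 in basal cultures (SD, n = 3 each). The difference was 2.47 log2 (SE 0.22), a 5.53-fold higher level with a 95% interval of 3.80 to 8.06. Basal values lay around the array medians, and without a detection call the fold rests on a level whose distance from background is unknown.

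Among the 51 genes past the threshold in the upward direction (0.557% of the 9162 tested, limma, adjusted p under 0.05), ATP1B1 had the 10th largest difference. This comparison chose the gene, so its place there is no support. The difference was 2.66 log2 without basal 3, and it ran from 2.25 without basal 2 to that value when each array was left out in turn. Spread was wider among basal than among treated arrays, with basal 2 lowest and basal 3 highest.

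**Figure D1:**
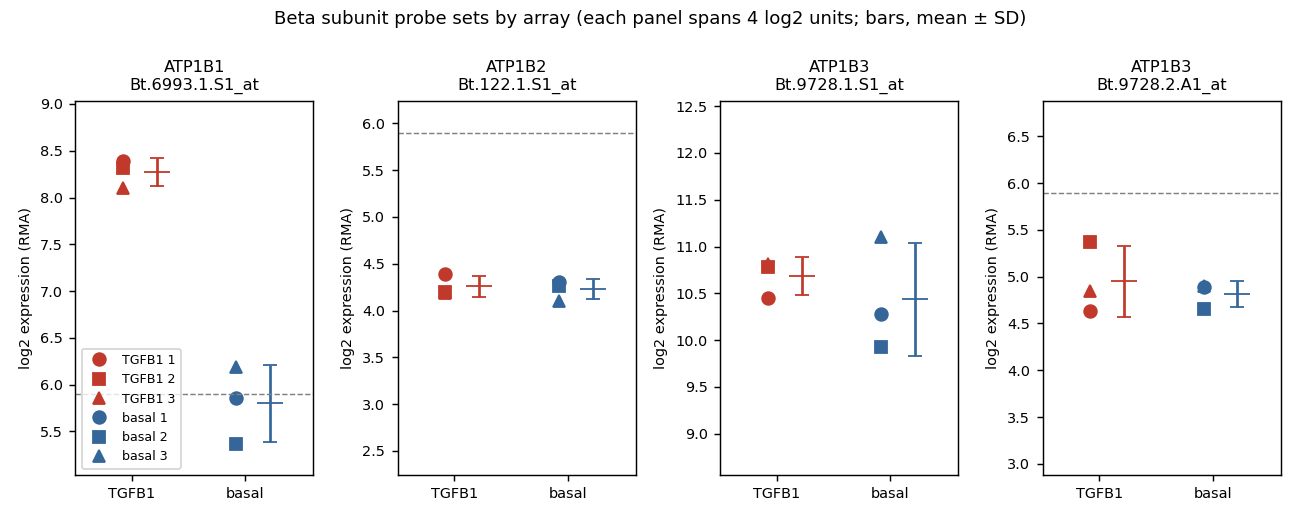
Log2 expression (vertical axis) of the 4 beta subunit probe sets in TGFB1 and basal arrays, with a marker shape for each replicate number, bars for mean ± SD (n = 3 each) and a dashed line at the mean of the array medians where it falls in the panel. Each panel spans the same number of log2 units. ATP1B1 lies at 8.11 to 8.39 in TGFB1 arrays and at 5.37 to 6.19 in basal arrays, while the groups of the other 3 probe sets overlap.

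ATP1B2, the beta 2 subunit known as the adhesion molecule on glia, stood low in all arrays. It read 4.39, 4.20 and 4.19 log2 in TGFB1 1, 2 and 3, against 4.31, 4.27 and 4.11 in basal 1, 2 and 3. The groups overlapped, and every value lay below the 25th percentile of the arrays. Without basal 3 the difference was -0.03 log2 (limma adjusted p = 0.902). Mean levels were 4.26 ± 0.11 in TGFB1 cultures and 4.23 ± 0.11 in basal cultures (SD, n = 3 each). The difference of 0.03 log2 (SE 0.12) did not pass the test (limma adjusted p = 0.912). Its 95% interval, from 0.843-fold to 1.25-fold, left out a change of the size of ATP1B1. That interval covers the signal of the probe set, and a transcript not shown above background could differ without it.

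ATP1B3, the widely expressed beta 3 subunit also known as CD298, had a bright and a dim probe set. The bright one read 10.45, 10.78 and 10.82 log2 in TGFB1 1, 2 and 3, against 10.28, 9.93 and 11.11 in basal 1, 2 and 3. Basal arrays held both the lowest and the highest value, so the treated arrays lay inside their range. The means were 10.68 ± 0.20 in TGFB1 cultures and 10.44 ± 0.60 in basal cultures (SD, n = 3 each), a difference of 0.24 log2 (SE 0.31) that did not pass (limma adjusted p = 0.746). The 95% interval ran from -0.51 to 1.00 log2. Without basal 3 the difference was 0.58 log2 (limma adjusted p = 0.0802), and it was -0.01 without basal 2.

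The dim ATP1B3 probe set read 4.63, 5.37 and 4.85 log2 in TGFB1 1, 2 and 3, against 4.89, 4.66 and 4.90 in basal 1, 2 and 3. Its difference was 0.13 log2 (SE 0.20, limma adjusted p = 0.835 over all probe sets), with the same sign as the bright one and with overlapping groups. Of the 3 beta subunit genes, 1 was past the threshold, beside 1.72% of all genes, and nothing is read from that count because the comparison chose the gene.

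Within each array, the distance between ATP1B1 and the other beta subunits was set against the same distance in the other arrays. Such a distance compares changes, since levels of different probe sets are not on one scale. ATP1B1 minus ATP1B3 was -2.06, -2.46 and -2.71 log2 in TGFB1 1, 2 and 3, against -4.43, -4.56 and -4.92 in basal 1, 2 and 3. The shift was 2.23 log2 (SE 0.24, 95% interval 1.56 to 2.89), or 4.68-fold, and it was 2.08 without basal 3. Among the basal arrays this distance had an SD of 0.26, smaller than that of ATP1B1 (0.41) or ATP1B3 (0.60) alone. Among the treated arrays its SD of 0.33 was larger than that of ATP1B1 (0.15) or ATP1B3 (0.20). Of the basal arrays, both genes were lowest in basal 2 and highest in basal 3.

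Set against ATP1B2, ATP1B1 stood 4.00, 4.12 and 3.91 log2 higher in TGFB1 1, 2 and 3, and 1.55, 1.10 and 2.08 higher in basal 1, 2 and 3. That shift was 2.43 log2 (SE 0.29, 95% interval 1.63 to 3.24), and 2.69 without basal 3. With the dim ATP1B3 probe set it was 2.34 (SE 0.29). The groups were apart in all 3 distances. These shifts contain the difference that chose ATP1B1 and were not tested.

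**Figure D2:**
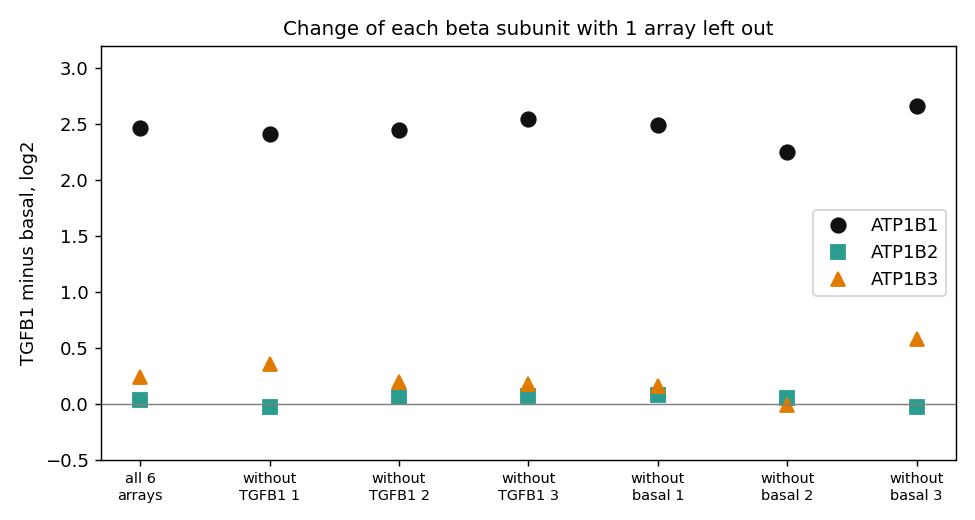
Difference between TGFB1 and basal means (log2, vertical axis) of the 3 beta subunits with all 6 arrays and with each array left out in turn (horizontal axis). ATP1B1 stays between 2.25 and 2.66, ATP1B2 between -0.03 and 0.08, and ATP1B3 between -0.01 and 0.58, the highest value without basal 3.

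The beta subunits also differed in how they followed the main division among the arrays. ATP1B3 lay at 9.93 to 10.45 log2 in basal 1, basal 2 and TGFB1 1, and at 10.78 to 11.11 in basal 3, TGFB1 2 and TGFB1 3. ATP1B2 ran the other way, at 4.27 to 4.39 in the first of these sets and 4.11 to 4.20 in the other, a narrow range near the floor of the arrays. Both genes were apart between the array sets, as were 41.3% of all genes. ATP1B1 overlapped between them. The sets come from the first component of these same arrays and are no groups of the study, so no test applies, and what they stand for was not tested.

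**Figure D3:**
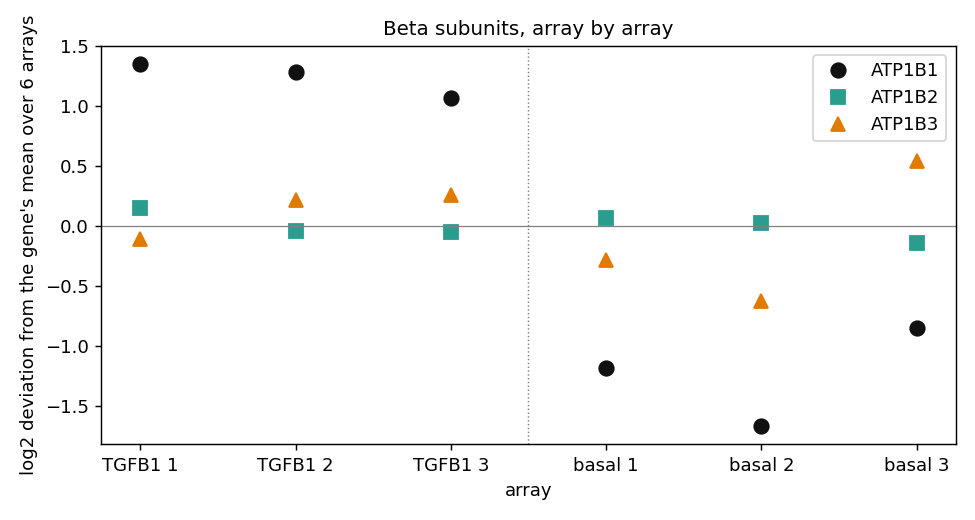
Deviation of each beta subunit from its own mean over the 6 arrays (log2, vertical axis) by array (horizontal axis), with TGFB1 arrays left of the dotted line and basal arrays right of it. ATP1B1 is above 0 in all TGFB1 arrays and below 0 in all basal arrays, ATP1B3 is highest in basal 3 and lowest in basal 2, and ATP1B2 stays near 0.

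Of 8 lists of genes related to the sodium pump by function or only by family, 7 held measured genes, 53 in all. Of these, 1 rose (1.89%) and none fell by limma over all genes, beside 0.557% of all genes that rose and 1.17% that fell. At an unadjusted p under 0.05 stood 7 of the 53 (13.2%), against 17.4% of all genes. The median difference was -0.04 log2 in the lists and -0.03 over all genes.

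None of the 5 measured FXYD genes passed (limma, none at an unadjusted p under 0.05, smallest adjusted p = 0.328), with a median of -0.23 log2. FXYD5, known as dysadherin, binds the pump and affects cell adhesion. It read 10.10, 9.73 and 9.52 log2 in TGFB1 1, 2 and 3, against 10.25, 10.25 and 9.54 in basal 1, 2 and 3, a difference of -0.23 (SE 0.25, limma adjusted p = 0.696), and -0.47 without basal 3 (limma adjusted p = 0.144). The other FXYD5 probe set stood at 0.44 (SE 0.24), so the probe sets disagreed in sign and neither passed.

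FXYD6 varied more than any other FXYD gene. Its values were 8.67, 7.11 and 7.22 log2 in TGFB1 1, 2 and 3, against 9.08, 8.97 and 6.81 in basal 1, 2 and 3. It was high in basal 1, basal 2 and TGFB1 1 and low in the others, and TGFB1 1 lay below both basal arrays of its set. Its difference was -0.62 (SE 0.73, limma adjusted p = 0.720) with a 95% interval of -2.39 to 1.15, and -1.36 without basal 3 (limma adjusted p = 0.114). FXYD2, the gamma subunit of kidney pumps, stood at -0.27 (SE 0.12), FXYD7 at 0.22 (SE 0.14) and FXYD1, the phospholemman of heart and muscle, at -0.08 (SE 0.16). The other FXYD7 probe set stood at -0.008 (SE 0.10).

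Relatives of the beta subunits gave no call in 3 measured genes (limma, none at an unadjusted p under 0.05, smallest adjusted p = 0.707). ATP1B4, a beta-like protein of the nuclear membrane in placental mammals, read 3.70 to 3.85 log2 in TGFB1 arrays and 3.64 to 3.75 in basal arrays. The gastric proton pump subunits ATP4A and ATP4B stood at 0.16 (SE 0.18) and -0.04 (SE 0.11). Further ATP4A probe sets were at -0.06 (SE 0.12) and 0.04 (SE 0.10). All of these lay below the array medians.

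Chaperones that handle newly made membrane proteins formed the list of beta subunit partners, where 1 of 3 measured genes rose. HSPA5 (BiP), the main chaperone of the endoplasmic reticulum, binds pump subunits that have not yet assembled. It read 12.28, 12.11 and 12.20 log2 in TGFB1 1, 2 and 3, against 10.91, 11.08 and 11.45 in basal 1, 2 and 3. The groups did not overlap, and the rise was 1.05 log2 (SE 0.16), or 2.07-fold (95% interval 1.57 to 2.72, limma adjusted p = 0.0449). With each array left out the difference ran from 0.93 to 1.20, but the call held only in the fit without basal 3 among these. It also ended when a gene's probe sets were averaged (0.84, adjusted p = 0.0559) and when probe sets were tested alone (adjusted p = 0.0602). Of the other HSPA5 probe sets, a bright one stood at 1.37 (SE 0.22) and a dim one at 0.10 (SE 0.13). The lectin chaperones CANX and CALR stood at 0.39 (SE 0.10, limma adjusted p = 0.122) and 0.27 (SE 0.18, limma adjusted p = 0.498).

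None of 8 measured pump regulators passed (limma, 1 at an unadjusted p under 0.05). SGK1, a steroid-induced kinase that raises sodium transport, came nearest to the threshold. It read 11.63, 10.87 and 10.67 log2 in TGFB1 1, 2 and 3, against 10.04, 9.78 and 9.85 in basal 1, 2 and 3. The groups were apart and the difference was 1.17 log2 (SE 0.26, limma adjusted p = 0.0914), and 1.15 without basal 3 (limma adjusted p = 0.0563). A further SGK1 probe set stood at 1.31 (SE 0.29), and a dim one at 0.12 (SE 0.09). CAV1, the caveolin of endothelial caveolae where pump molecules can reside, stood at -0.71 (SE 0.31, limma adjusted p = 0.322), at -0.57 without basal 3 and at -0.41 without TGFB1 1.

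NEDD4L, a ubiquitin ligase that removes sodium channels from the surface, was apart between the array sets. Its values were 8.71, 7.83 and 7.86 log2 in TGFB1 1, 2 and 3, against 9.08, 9.03 and 7.32 in basal 1, 2 and 3, with a difference of -0.34 (SE 0.53), and -0.92 without basal 3 (limma adjusted p = 0.0852). Together 19 of the 53 related genes (35.8%) were apart between the array sets, beside 41.3% of all genes.

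Carriers and channels that let sodium into the cell gave no call in 15 measured genes (limma, 2 at an unadjusted p under 0.05, smallest adjusted p = 0.191). SLC20A1, a sodium-phosphate carrier, stood at 0.48 (SE 0.15). SLC23A2, which takes up vitamin C with sodium, stood at 0.35 (SE 0.12, limma adjusted p = 0.23). SLC12A2 (NKCC1), the cotransporter of sodium, potassium and chloride, read 8.08, 7.98 and 7.94 log2 in TGFB1 1, 2 and 3, against 8.06, 8.39 and 8.66 in basal 1, 2 and 3. The difference was -0.37 (SE 0.17, limma adjusted p = 0.335), with overlapping groups, and -0.23 without basal 3.

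SLC4A7, a sodium bicarbonate cotransporter, read 7.98, 8.20 and 8.19 log2 in TGFB1 1, 2 and 3, against 6.27, 7.14 and 7.97 in basal 1, 2 and 3. Its difference was 1.00 (SE 0.41, limma adjusted p = 0.289) with all arrays and 1.42 without basal 3 (limma adjusted p = 0.0259). Without basal 1 it was 0.57. Basal 3 alone lay close to the treated arrays, and 1538 of 9162 genes passed without it.

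Potassium channels gave no call in 8 measured genes (limma, 1 at an unadjusted p under 0.05). KCNJ2 (Kir2.1), an inward rectifier that holds the resting potential of endothelial cells, read 7.24, 7.23 and 7.41 log2 in TGFB1 1, 2 and 3, against 8.89, 8.86 and 7.79 in basal 1, 2 and 3. The groups were apart, with basal 3 nearest to the treated arrays. Its difference was -1.22 (SE 0.31, limma adjusted p = 0.118), and -1.58 without basal 3 (limma adjusted p = 0.00422), where 1538 of 9162 genes passed. KCNK2, a mechanosensitive channel, stood at -0.32 (SE 0.14).

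Other P-type ATPases, the wider family of ion and lipid pumps, gave no call in 11 measured genes (limma, 1 at an unadjusted p under 0.05). ATP2A2 (SERCA2), which returns calcium to the endoplasmic reticulum, read 11.25, 10.86 and 10.75 log2 in TGFB1 1, 2 and 3, against 10.32, 10.13 and 10.10 in basal 1, 2 and 3. It stood at 0.77 (SE 0.16, limma adjusted p = 0.0840), and at 0.73 without basal 3 (limma adjusted p = 0.0493). The 3 other ATP2A2 probe sets had the same sign, from 0.23 to 0.38. ATP13A3, a polyamine pump, stood at 1.40 (SE 0.63, limma adjusted p = 0.332), and at 2.12 without basal 3 (limma adjusted p = 0.0141). Its other probe set stood at -0.07 (SE 0.09), the mean of both at 0.66, and the value without basal 1 was 0.96. ATP2B1, a calcium pump of the plasma membrane, stood at -1.07 (SE 0.59, limma adjusted p = 0.425). It stood at -0.49 without TGFB1 1 and at -0.66 without basal 3, and its other probe sets were at -1.20 and 0.10. The fit without basal 3 leaves basal arrays of one array set only, against treated arrays of which 2 lie in the other. In that fit 1538 of 9162 genes passed.

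**Figure D4:**
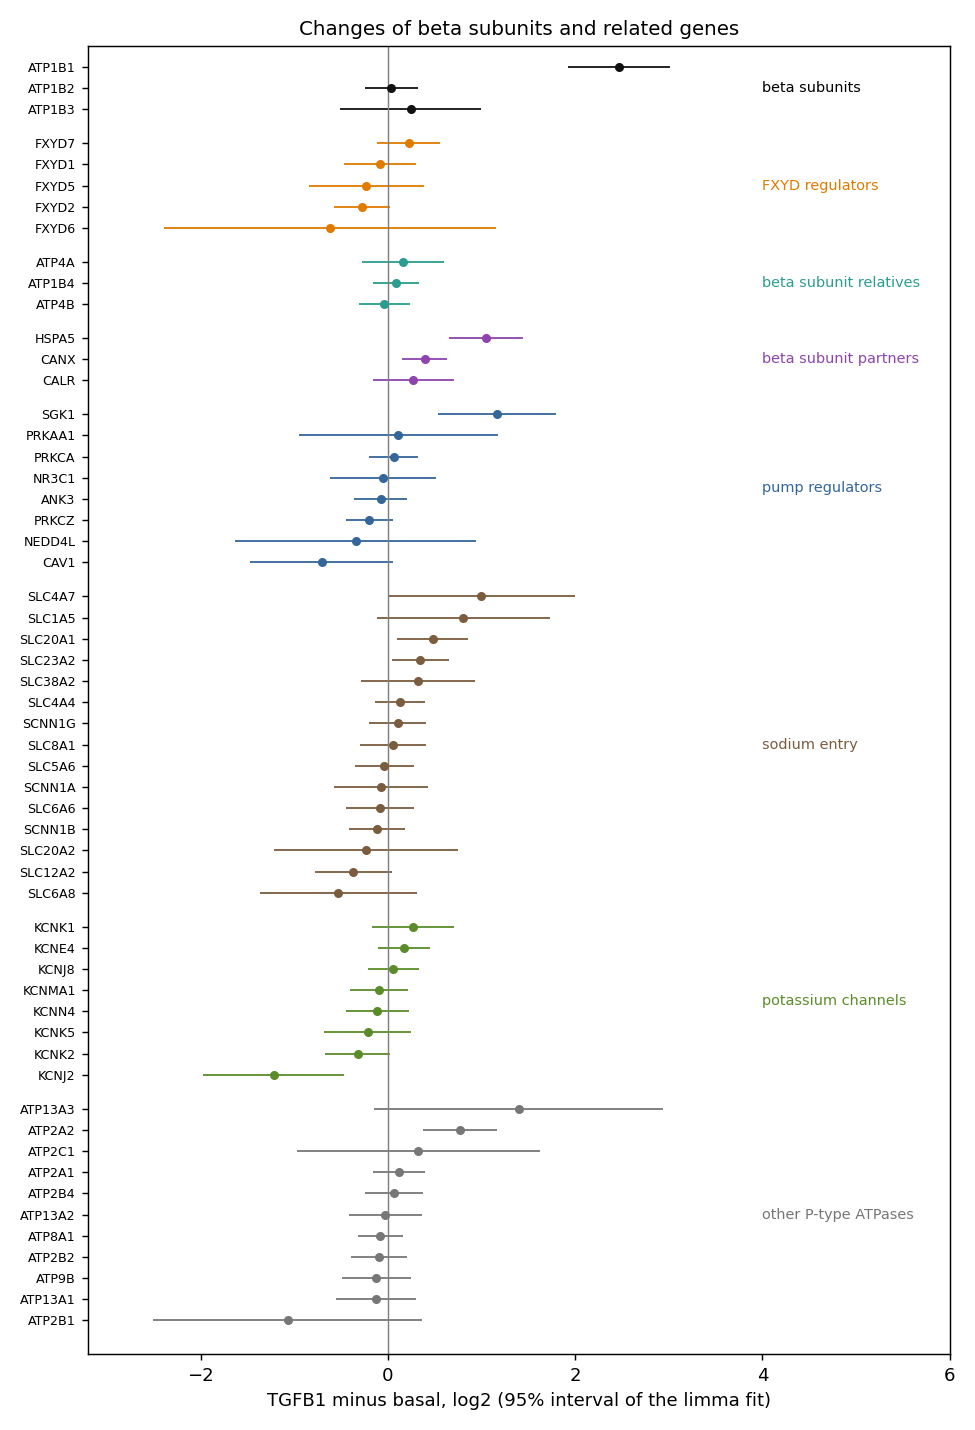
Difference between TGFB1 and basal arrays (log2, horizontal axis) with its 95% interval from the limma fit for the 3 beta subunits and the 53 measured related genes, grouped by list and ordered by size within each list. ATP1B1, chosen for its difference, lies at 2.47, HSPA5 at 1.05, and no other interval reaches the 2.47 of ATP1B1 except that of ATP13A3.

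The neighbours of ATP1B1 on bovine chromosome 16, taken by gene order in the RefSeq table of assembly ARS-UCD2.0, were read as well. NME7, the next gene on one side, read 7.75, 9.36 and 9.46 log2 in TGFB1 1, 2 and 3, against 6.69, 8.02 and 9.56 in basal 1, 2 and 3. Its difference of 0.77 (SE 0.81, limma adjusted p = 0.685) did not pass and the groups overlapped, and it was 1.5 without basal 3 (limma adjusted p = 0.167). BLZF1 beyond it stood at 0.78 (SE 0.41, limma adjusted p = 0.397), and at 1.12 without basal 3 (limma adjusted p = 0.0889). DPT and XCL1, on the other side, lay at -0.001 and -0.09 log2, both below the array medians. None of the 4 neighbours passed (limma, none at an unadjusted p under 0.05), by a choice of genes made after the values of ATP1B1 were known.

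Genes whose pattern over the 6 arrays was most like that of ATP1B1 were sought among 847 genes with an SD of at least 0.5 times its own. The closest was CCDC80, a secreted matrix protein (Pearson r = 0.996). CXCL12, a chemokine, followed at 0.995, GAS2, which links actin to microtubules, at 0.994, TAGLN, the smooth muscle protein transgelin, at 0.993 and F2RL1, the protease-activated receptor PAR2, at 0.988. In all, 55 of the 847 had r above 0.9. The most opposite were TYMS, which makes thymidylate (r = -0.994), SULT1A1, a sulfotransferase (r = -0.989), and QPRT, an enzyme of NAD synthesis (r = -0.985).

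These correlations are over 6 arrays that fall into treated and untreated groups. A large difference with little spread inside the groups therefore gives a high or a strongly negative value. They describe the likeness and carry no test. CCDC80 read 10.31, 10.50 and 10.38 log2 in TGFB1 1, 2 and 3, against 7.86, 7.41 and 8.39 in basal 1, 2 and 3. Like ATP1B1 it was lowest in basal 2 and highest of the basal arrays in basal 3. Between the beta subunits, r was 0.45 for ATP1B1 with ATP1B3, 0.13 for ATP1B1 with ATP1B2 and -0.69 for ATP1B2 with ATP1B3.

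**Figure D5:**
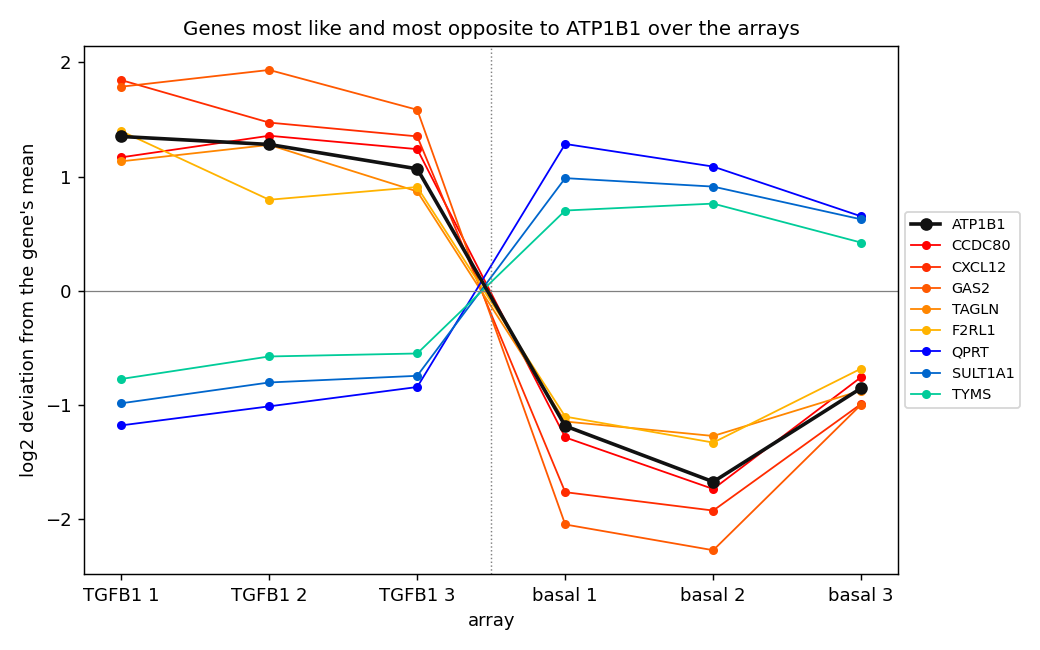
Deviation from each gene's own mean (log2, vertical axis) over the 6 arrays (horizontal axis, TGFB1 left of the dotted line and basal right) for ATP1B1, the 5 genes most like it and the 3 most opposite, with lines that only join the points of one gene. ATP1B1 and all 5 genes most like it are lowest in basal 2, and TYMS, SULT1A1 and QPRT are above their means in basal arrays.

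Markers were read to check the labelled cell type and the level of others. PECAM1 read 11.72 to 11.84 log2 in TGFB1 arrays and 12.08 to 12.43 in basal arrays, and CDH5 read 11.37 to 11.75 in TGFB1 arrays and 11.76 to 12.34 in basal arrays. KDR, a further endothelial marker, lay below the array median in every array. VWF, also endothelial, lay just above the medians, at 5.99 to 6.05 in TGFB1 arrays and 6.05 to 6.33 in basal arrays. Its other probe set read 4.56 to 4.84 in TGFB1 arrays and 4.65 to 4.89 in basal arrays. The summed linear level of 7 endothelial markers was 9403 to 10548 in TGFB1 arrays and 11081 to 15379 in basal arrays, and none of the 7 passed (limma, 3 at an unadjusted p under 0.05). That of 7 smooth muscle markers was 4396 to 5695 in TGFB1 arrays and 1361 to 1696 in basal arrays, with TAGLN as the 1 member that rose. MYH11 and CNN1, which define mature smooth muscle, were below the array medians in all arrays. TAGLN, ACTA2, SMTN and DES were above the medians in all arrays, and LMOD1 lay around them. ACTA2 read 6.77 to 7.94 log2 in TGFB1 arrays and 6.95 to 7.97 in basal arrays.

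The sum of 6 fibroblast markers was 3126 to 5263 in TGFB1 arrays and 2601 to 3061 in basal arrays, and none passed (limma, 1 at an unadjusted p under 0.05). DCN and LUM were below the medians in all arrays. COL1A2, FBLN1 and COL1A1 were above them in all arrays, and PDGFRA lay around them. COL1A2 read 11.19 to 12.23 log2 in TGFB1 arrays and 10.65 to 11.33 in basal arrays. FBLN1 read 7.73 to 9.09 in TGFB1 arrays and 8.17 to 9.97 in basal arrays. Sums were 221 to 241 in TGFB1 arrays and 233 to 270.4 in basal arrays for 6 epithelial markers, and 184 to 264 in TGFB1 arrays and 188 to 199.9 in basal arrays for 5 leukocyte markers. For 4 erythroid markers they were 109 to 160 in TGFB1 arrays and 87.5 to 99.9 in basal arrays. The endothelial, smooth muscle, fibroblast and erythroid sums did not overlap between the groups, the first lower and the others higher in TGFB1 arrays. Single genes weigh most in the higher sums: TAGLN at 2.19 log2, COL1A2 at 0.93 and EPB42 at 1.17, the last 2 without a call. FBLN1 stood at -1.04, and the mean log2 of the fibroblast markers overlapped, at 6.75 to 6.86 in TGFB1 arrays and 6.66 to 7.0 in basal arrays. The part of these markers in the difference of ATP1B1 was not tested. In such bulk samples fewer cells of a type and less RNA per cell cannot be told apart.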

How the data were processed

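The deposited values are log2 expression per probe set, which the authors made by RMA. The submitters' processing notes name RMA and affy, without versions. RMA corrects background, equalises the arrays by quantiles and summarises probes, which compresses differences near background. Columns were assigned by sample label, and 0 were left unused.

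Of 24128 probe sets, 112 AFFX controls were left out. The array annotation gave 1 symbol for 13292 of the rest, several for 86 and none for 10638, and 13263 matched the RefSeq gene table by identifier. A gene was represented by its brightest probe set over the 6 arrays, which gave 9162 genes by identifier. The test was that of limma 3.58.1 under R 4.3.3 (functions lmFit and eBayes, with group as sole term), two-sided, with Benjamini-Hochberg adjustment over all genes and a threshold of 0.05. Within-array distances have the SE of the difference of 2 means with 4 degrees of freedom. No filter on dim genes was applied, and no set test was run. Same-numbered arrays deviated together in 2 of 3 numbers only, and the main fit does not pair the arrays. These deviations cannot decide whether same-numbered arrays belong together, so a fit with a replicate block is given as an alternative.

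Members and lists were chosen with earlier results of these data known. Named genes were the members, the 4 smallest unadjusted p of each list, FXYD5, SLC12A2, ATP2B1 and HSPA5 and the genes nearest to or farthest from ATP1B1 in pattern. FXYD1, NEDD4L and the neighbours of ATP1B1 were named after their values were seen. Tested on simulated data of 3 arrays against 3 with 9162 genes, the fit recovered 7.7% of genes changed by 0.5 log2, 51.3% at 1 and 81.8% at 2. These rates hold for the simulated arrays, and recovery in the deposited arrays, with their division apart from treatment, was not tested. Alternatives were other scalings, spread models, a replicate block, a filter, other gene summaries and leaving out each array. Figures were drawn with matplotlib 3.10.9. Some listed genes are not reported here. The number of arrays limits the precision, and no sequence is shown.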

Additional observations from a re-analysis of the deposited data

How the results depend on the processing

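ATP1B1 was past the threshold in 7 of 8 alternatives with all arrays, not with the replicate block, and in 1 of 6 with an array left out (without basal 3). These same arrays chose ATP1B1, so the counts describe the fits and give the gene no support. Leaving out an array gave 2.25 to 2.66 log2 for ATP1B1, 2.20 to 2.69 for its shift against ATP1B2, 2.05 to 2.38 against ATP1B3, -0.030 to 0.076 for ATP1B2 and -0.012 to 0.58 for ATP1B3. ATP1B2 turned sign without TGFB1 1 (-0.030) and without basal 3 (-0.026), and ATP1B3 without basal 2 (-0.012). Neither passed in any alternative, and ATP1B2 was removed by the filter at the 25th percentile.

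The number of genes past the threshold was 158, and 99 with limma-trend. It was 0 with the replicate block (limma, 2039 at an unadjusted p under 0.05) and 0 to 1538 with an array left out: 3, 0 and 8 without TGFB1 1, 2 and 3, and 1, 0 and 1538 without basal 1, 2 and 3. The 0 counts stood beside 1046 and 1010 genes at an unadjusted p under 0.05. Related genes that rose numbered 1, and 0 with the replicate block, with a gene's probe sets averaged and with probe sets tested alone, and 0 to 4 with an array left out. The 4 came without basal 3, where KCNJ2 fell. With the replicate block HSPA5 had a limma adjusted p = 0.0914. Same-numbered arrays had correlated deviations of 0.67, -0.51 and 0.70, and not every array matched its own number best. FXYD5 stood at 0.10 and ATP2A1 at -0.029 with probe sets averaged. ATP4B ran from -0.11 to 0.0041 with an array left out, the highest without basal 1. A further quantile normalization or median centring moved the median difference of all genes by -0.01 log2. The causes were not tested. Without a detection call, signal over background limits what ATP1B2 can show.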
